A study of Mus musculus with 8 samples.

Results

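Btbd9, Gm50240, Glo1, Dnah8, Glp1r and Gm10503 are neighbours on mouse chromosome 17 and were examined in the retina of wild-type (WT) mice and of mice that lack the extracellular matrix genes Bcan, Ncan, Tnc and Tnr (quadruple KO). The 6 genes were picked by name from the 18058 genes of the deposited table because earlier results of these data had shown each of them lower in the quadruple KO. Their difference between the genotypes is therefore a description here and carries no test. On GRCm39 they lay within chr17:30434498-31182301, an interval of 748 kb. Of 25 annotated genes inside it, only these 6 were found among the 18058 genes, and they included each of its 4 protein-coding genes.

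Total RNA of adult retinae from 4 WT and 4 quadruple KO libraries was sequenced, with the letters A to D used in both genotypes, after preparation with a kit for directional libraries. The WT mice were of the inbred background strain 129S2/SvPasCrl. The quadruple KO mice came from crosses of the single KO lines of the 4 targeted genes. Mice of both sexes were used, and the sex behind each library is not given in the sources used here. Per the study's methods the retinae for RNA were pooled. How many animals a library holds, and whether libraries of a genotype came from separate animals, is not given, so the p-values measure the spread between these libraries, which may be partly technical. Genotype and any difference in strain background at this interval cannot be told apart in this design.

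The interval holds genes with unrelated tasks. Glo1 encodes glyoxalase 1, the enzyme that joins methylglyoxal, a reactive by-product of glycolysis, to glutathione so that it can be cleared. Btbd9 encodes a BTB domain protein, and proteins of this class often serve as adaptors of Cul3 ubiquitin ligases. Dnah8 encodes a heavy chain of the axonemal dyneins, the motors that bend cilia and sperm tails. Glp1r encodes the receptor for glucagon-like peptide 1, a class B G protein-coupled receptor that raises cyclic AMP. Gm50240 and Gm10503 are long non-coding RNAs (lncRNAs). The chromosomal region around Glo1 is known to differ in copy number between inbred mouse strains. Copy number was not measured in these libraries.

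Along the chromosome the order was Btbd9 (chr17:30434498-30795517, minus strand), Gm50240 (chr17:30795264-30801573, plus), Glo1 (chr17:30803910-30845845, minus), Dnah8 (chr17:30843328-31096339, plus), Glp1r (chr17:31120525-31159765, plus) and Gm10503 (chr17:31139312-31182301, minus). Btbd9 and Gm50240 stood head to head, with 254 bases of exon in common on opposite strands. Glo1 and Dnah8 overlapped by 2518 bases of their spans and by 0 bases of exon. Gm10503 ran against Glp1r over 20454 bases, of which 123 were exonic in both. The strand setting of the gene counting is not given in the sources used here, so reads of such antisense partners cannot be told apart where exons overlap.

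The 250 bases before the annotated start are shown for Btbd9, the gene where the difference was smallest, and for Glp1r, the protein-coding gene where it was largest. They were read from GRCm39 in the direction of transcription, and capitals mark a CCAAT box on either strand (CCAAT or ATTGG).
Btbd9 (chr17:30795518-30795767, minus strand): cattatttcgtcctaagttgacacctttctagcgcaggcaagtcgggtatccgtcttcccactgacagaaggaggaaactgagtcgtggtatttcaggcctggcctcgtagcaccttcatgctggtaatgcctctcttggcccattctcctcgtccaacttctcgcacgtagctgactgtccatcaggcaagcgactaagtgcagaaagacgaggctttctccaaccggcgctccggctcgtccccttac
Glp1r (chr17:31120275-31120524, plus strand): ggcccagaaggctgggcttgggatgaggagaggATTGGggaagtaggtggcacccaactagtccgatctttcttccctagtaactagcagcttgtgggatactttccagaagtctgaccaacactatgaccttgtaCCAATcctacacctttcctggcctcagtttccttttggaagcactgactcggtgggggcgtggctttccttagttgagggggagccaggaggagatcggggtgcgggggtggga

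The window of Btbd9 had a GC content of 54.4% and 15 CpG dinucleotides. It lies within an exon of Gm50240, as the start of Btbd9 is 361 kb into the interval. The window of Glp1r had a GC content of 55.6%, 5 CpG dinucleotides and 2 CCAAT boxes. Over the windows of 17968 genes in the table the median GC content was 55.2%. A CCAAT box was found in 34.9% of those windows, a GC box (GGGCGG on either strand) in 42.9% and a TATA box (TATAAA on either strand) in 9.3%. Neither of the latter motifs was found in either window shown. Such matches describe letters in a window and not sites that are bound.

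The values below are normalized counts, which the authors made by dividing estimated counts by the normalization factors of DESeq2. Their sum per library was 36.1 M to 42.2 M, and the depth estimated from the value of 1 read was 23.8 M to 40.5 M reads for WT and 38.9 M to 52.5 M reads for quadruple KO libraries. WT B and WT C stood apart from the other 6 libraries. On the first principal component (50.9% of the variance) they lay at 71.9 and 69.3, against -30.2 to -11.0 for the others. Mitochondrially encoded mRNAs made up 0.402% of all counts for WT B and 0.341% for WT C, against 1.28% to 1.64% in the others. Levels of the 6 genes relative to WT are therefore given below with and without these 2 libraries, and so are some of the other results. A value given only with all WT libraries may also move without them. All 20 markers of retinal cell types were present, at 121 normalized counts or more in every library. Of these, the ganglion cell marker Rbpms was lower in every quadruple KO library (565 to 730) than in every WT library (781 to 987), and the rod marker Sag was higher without overlap. Over all genes tested, 3.58% lay below and 6.16% above WT in this way, so nothing is read from 1 marker in each direction. The summed ganglion cell markers Rbpms, Slc17a6 and Pou4f1 ran from 3992 to 4593 in WT and from 3298 to 3970 in quadruple KO libraries. Singly, Slc17a6 (2147 to 3064 in WT, 1906 to 2263 in quadruple KO libraries) and Pou4f1 (559 to 1065 and 827 to 1051) overlapped between the genotypes. The part of these markers in the results below was not tested. In bulk retina, fewer cells of a type and less RNA per cell cannot be told apart.

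Of the targeted genes, Ncan had 688 ± 94.0 normalized counts in WT retinae and at most 0.853 in any quadruple KO library (SD, n = 4). Bcan fell from 258 ± 54.7 to 15.02 ± 4.79 (SD, n = 4). Tnr fell from 5856 ± 340 to 2509 ± 95.1 (SD, n = 4). Tnc stood at 1265 ± 330 in WT retinae and 1175 ± 104 in quadruple KO retinae (SD, n = 4), with a log2 difference of -0.07 and an adjusted p of 0.826 in limma. Its log2 difference to WT A and WT D was 0.25. By limma, 3 of the 4 targeted genes were called lower. The paper reports that part of the Tnc sequence is lost in these mice and that the protein was not detected in their postnatal retinae. A count over a whole gene measures neither protein nor the loss of part of the gene.

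Btbd9, at the start of the interval, had 5071, 6208, 4540 and 5378 normalized counts in WT A to D and 3177, 3139, 3365 and 3161 in quadruple KO A to D. The genotypes did not overlap, and the lowest WT library was 1.35 times the highest quadruple KO library. The means were 5299 ± 698 and 3211 ± 104 (SD, n = 4), so the quadruple KO stood at 60.6% of WT, with a log2 difference of -0.71 (SE 0.09). Against WT A and WT D alone it stood at 61.5%.

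Gm50240, the lncRNA that starts head to head with Btbd9, had 975, 1220, 948 and 1135 normalized counts in WT A to D and 528, 445, 466 and 556 in quadruple KO A to D. The genotypes did not overlap. The means were 1070 ± 130 and 499 ± 51.9 (SD, n = 4), which put the quadruple KO at 46.6% of WT, or 47.3% of WT A and WT D. The log2 difference was -1.10 (SE 0.11).

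Glo1 had 12683, 13720, 9906 and 11842 normalized counts in WT A to D and 5608, 4934, 5031 and 5546 in quadruple KO A to D. Per kb of exon it had the highest level of the 6 genes in every library, and its genotypes did not overlap. The means were 12038 ± 1616 and 5280 ± 346 (SD, n = 4). The quadruple KO stood at 43.9% of WT, or 43.1% of WT A and WT D, with a log2 difference of -1.18 (SE 0.10).

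A processed pseudogene of Glo1, Glo1-ps at chr2:35230421-35230975, shares most of its sequence with the enzyme gene. Of its 525 stretches of 31 bases, 454 (86.5%) also stood in a Glo1 transcript, so reads may be divided between them and its values are uncertain. It had 544, 705, 537 and 472 normalized counts in WT A to D and 12.9, 149, 178 and 17.9 in quadruple KO A to D. The genotypes did not overlap, and quadruple KO A and D lay far below B and C. Its log2 difference of -3.44 (SE 0.79) did not pass the test across all genes (limma, adjusted p = 0.241). Relative to Glo1, its level was 3.99% to 5.42% in WT and 0.231% to 3.54% in the quadruple KO. The sum of both was 12602 ± 1679 in WT retinae and 5370 ± 264 in quadruple KO retinae (SD, n = 4), or 42.6% of WT and 42.0% of WT A and WT D, close to Glo1 alone. Glo1-ps was singled out after its values were seen.

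Dnah8 had 207, 160, 107 and 152 normalized counts in WT A to D and 28.0, 31.1, 32.2 and 29.6 in quadruple KO A to D. The lowest WT library, C, was 3.31 times the highest quadruple KO library. The means were 156 ± 41.2 and 30.2 ± 1.82 (SD, n = 4), so the quadruple KO stood at 19.3% of WT, with a log2 difference of -2.30 (SE 0.20). With WT A and WT D alone it stood at 16.9%. The quadruple KO value rested on an estimated 152 reads over the 4 libraries.

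Glp1r had 104, 287, 126 and 106 normalized counts in WT A to D and 2.27, 1.95, 2.82 and 3.08 in quadruple KO A to D. WT B was more than 2 times as high as any other library, while the 4 quadruple KO libraries lay near 3 or below, on an estimated 2.65 to 3.97 reads each. The means were 156 ± 87.8 and 2.53 ± 0.512 (SD, n = 4), and the quadruple KO stood at 1.62% of WT. Without WT B and WT C it stood at 2.40%. The log2 difference was -5.35 (SE 0.34) on the scale of log2(normalized count + 1), which understates the change of a gene this low in 1 group.

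Gm10503, at the far end, had 698, 701, 310 and 747 normalized counts in WT A to D, and 0.854, 0, 0 and 0.925 in quadruple KO A to D. Those values correspond to an estimated 2 reads over the 4 quadruple KO libraries. WT C was the low WT library and still lay far above the quadruple KO. The means were 614 ± 204 and 0.445 ± 0.514 (SD, n = 4), and the ratio of WT to quadruple KO was 1380, with a 95% exact Poisson interval of 421 to 12556 that covers only the counting error of the 2 reads. The quadruple KO stood at 0.0725% of WT, or 0.0616% of WT A and WT D. The fitted log2 difference of -8.72 depends on the pseudocount and is not used further.

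**Figure D1:**
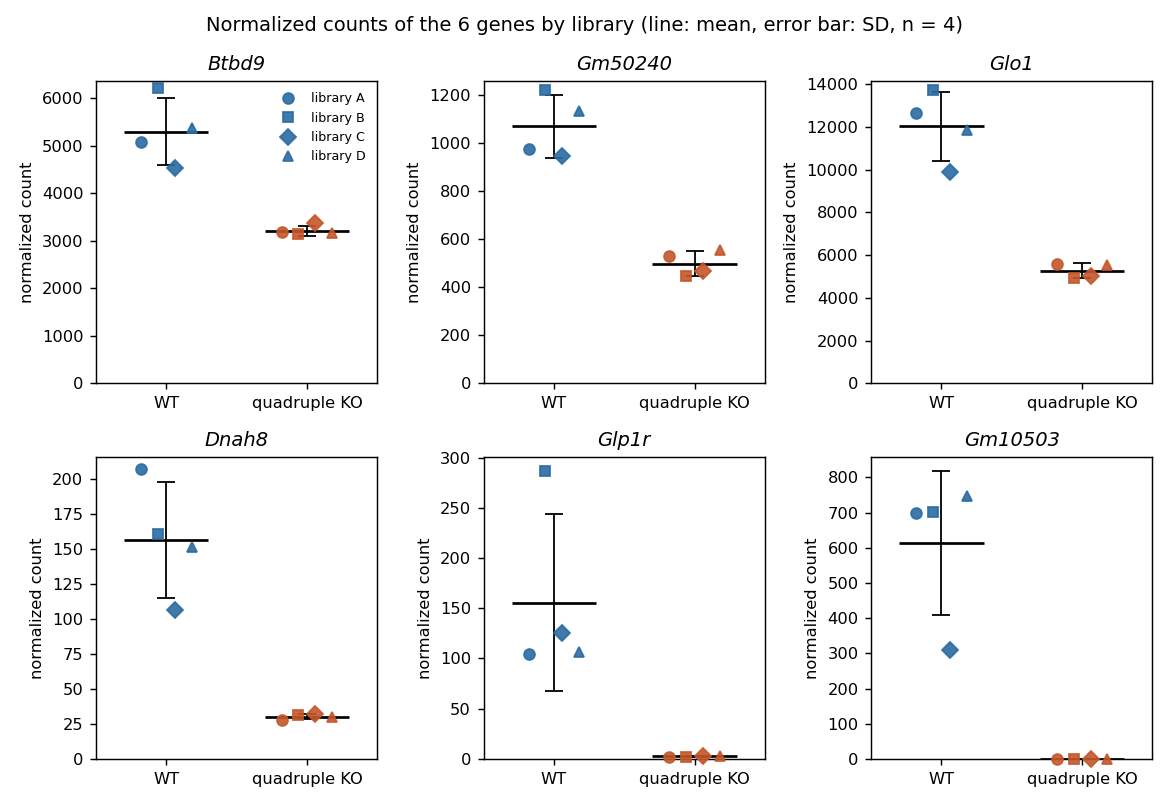
Normalized counts (vertical axis, linear from 0) of the 6 genes in each WT (blue) and quadruple KO (orange) library, with 1 marker shape per letter. The horizontal line is the mean and the bar the SD of 4 libraries. In every panel the 4 quadruple KO points lie below the 4 WT points, and for Glp1r WT B, at 287, lies apart from the other WT libraries.

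Side by side, the level that remained in the quadruple KO became smaller with each gene along the interval, from 60.6% at Btbd9 through 46.6%, 43.9%, 19.3% and 1.62% to 0.0725% of WT at Gm10503. Single quadruple KO libraries ran from 59.2% to 63.5% of the WT mean for Btbd9, from 41.6% to 51.9% for Gm50240 and from 41.0% to 46.6% for Glo1. The ranges of Gm50240 and Glo1 overlapped, so these neighbours are not set apart by the spread between libraries. The other steps lay outside each other's ranges, with 17.9% to 20.6% for Dnah8, 1.25% to 1.98% for Glp1r and at most 0.151% for Gm10503. These ranges share the WT mean of each gene, and the order is that of 6 genes picked for being lower.

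**Figure D2:**
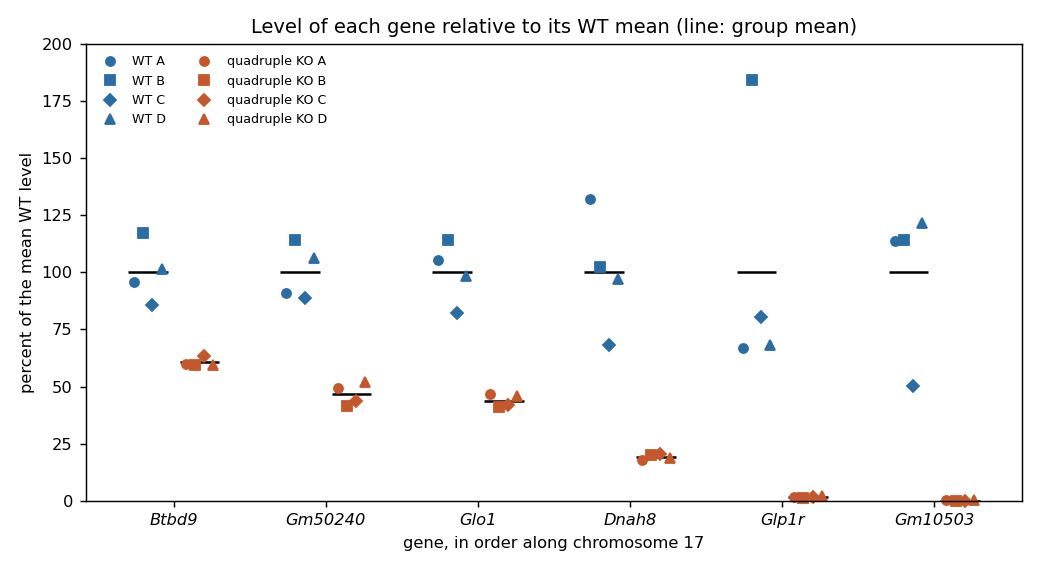
Level of each gene in each library as a percentage of its WT mean (vertical axis, linear), with the genes in chromosomal order from left to right. Blue points are WT and orange points quadruple KO libraries, and lines are group means. The quadruple KO points step down from 60.6% at Btbd9 to 0.0725% at Gm10503, while the WT points spread most at Glp1r.

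Over the 6 genes the median log2 difference was -1.74, against -0.00018 over the 17636 genes tested. The 6 genes passed the minimum mean, and by the limma threshold (adjusted p under 0.05) 6 of 6 were lower and 6 of 6 had no overlap between genotypes. Btbd9 missed this threshold with the letter as a replicate block (log2 difference -0.71) and without quadruple KO A, B or D (-0.71 to -0.70). Of all genes tested, 0.176% were called lower, 0.437% were called in either direction, and 3.58% had every quadruple KO library below every WT library. Since these values chose the genes, nothing is read from their counts.

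Scaled by exonic length, the WT levels in normalized counts per kb were 939 for Glo1, 231 for Btbd9, 170 for Gm50240, 127 for Gm10503, 25.6 for Glp1r and 5.77 for Dnah8. Glo1 lay at percentile 94.8 of all genes in WT and Dnah8 at percentile 9.07. Among neighbours in this order, the WT libraries of Gm50240 (150 to 193 per kb) and Gm10503 (64.1 to 155 per kb) overlapped. The other neighbours did not overlap in WT. In the quadruple KO the order changed at its lower end, where Dnah8 (1.03 to 1.19 per kb) lay above Glp1r (0.320 to 0.506 per kb) and Gm10503 (0 to 0.192 per kb).

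The spread between WT libraries differed among the genes. The coefficient of variation in WT was 13.2% for Btbd9, 12.1% for Gm50240 and 13.4% for Glo1, below the median of 18.3% over all genes tested. It was 26.3% for Dnah8, 33.2% for Gm10503 and 56.4% for Glp1r. In the quadruple KO it was 3.25% for Btbd9, 6.56% for Glo1 and 6.02% for Dnah8, below the median of 7.26% over all genes tested. It was above that median for Gm50240 (10.4%) and for Glp1r (20.3%) and Gm10503 (116%), which rest on a few reads there.

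Ratios within a library, which a single factor per library does not change, were compared between neighbours. Glo1 stood at 218% to 250% of Btbd9 in WT and at 150% to 177% in the quadruple KO. Gm50240 stood at 19.2% to 21.1% of Btbd9 in WT and at 13.8% to 17.6% in the quadruple KO. Each of these ratios was lower in every quadruple KO library than in every WT library. For the head-to-head pair the gap was narrow, at 17.6% against 19.2%, and reads of their shared exon bases cannot be told apart. How often other pairs of genes separate in this way was not computed, so nothing is read from it. Dnah8 was 1.08% to 1.63% of Glo1 in WT and 0.4995% to 0.640% in the quadruple KO, and Glp1r was 50.5% to 179% of Dnah8 in WT and 6.27% to 10.4% in the quadruple KO.

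The antisense pair at the far end varied within WT. Glp1r stood at 14.96% of Gm10503 in WT A and 14.2% in WT D, but at 40.9% in WT B and 40.6% in WT C. In WT B the level of Glp1r was the higher one and that of Gm10503 was like the others, whereas in WT C it was Gm10503 that was low. WT B and WT C are the libraries with the low mitochondrial share, and its part in these ratios was not tested.

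Some transcripts of the interval share sequence with annotated genes elsewhere or in the interval itself. Of the distinct 31-base stretches of its transcripts, 5.98% for Btbd9, 3.95% for Gm50240, 9.25% for Glo1 and 7.39% for Gm10503 also stood in a transcript of another gene. For Dnah8 and Glp1r the shares were 0.250% and 0.410%, so nearly all of their sequence was their own. The partner with most stretches in common was for both Btbd9 (1226) and Gm10503 (217) the lncRNA Gm50252, annotated on the same strand at chr17:30678476-31142805. Its span reaches from inside Btbd9 to inside Gm10503. It was not found among the 18058 genes, so its own level could not be analysed here.

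To see whether the lower levels went on beyond the interval, the genes on either side were compared between the genotypes. The edges of the interval were set by the genes picked as lower, so a clearly lower neighbour could have been picked too. Unchanged levels next to the edges are therefore partly given by that choice. Zfand3, which ends 4.70 kb before Btbd9, had 973 ± 99.3 normalized counts in WT retinae and 1029 ± 42.9 in quadruple KO retinae (SD, n = 4). Its log2 difference was 0.09, with a 95% confidence interval of -0.11 to 0.29 (two-sided exact permutation test on 4 against 4 libraries, p = 0.343). On the other side, Umodl1 starts inside the span of Gm10503, on the opposite strand and with 0 bases of exon in common. It had 69.3 ± 12.6 normalized counts in WT retinae and 72.4 ± 4.41 in quadruple KO retinae (SD, n = 4), a log2 difference of 0.08 with an interval of -0.29 to 0.44 (two-sided exact permutation test, p = 0.629). A difference as large as that of Btbd9 lay outside both intervals.

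Abcg1, a cholesterol exporter 94.3 kb past the interval, had a log2 difference of 0.17 (95% confidence interval -0.006 to 0.35). Mdga1, which encodes an adhesion molecule at the cell surface and lies 245 kb before the interval, had one of -0.18 (-0.42 to 0.06). The third nearest genes, Gm16758 at 318 kb before and Slc37a1 at 313 kb past the interval, had 0.44 (-0.44 to 1.322) and 0.36 (-0.68 to 1.41). The exact permutation p was 0.0571 for Abcg1, 0.229 for Mdga1, 0.314 for Gm16758 and 0.657 for Slc37a1. The smallest p that 4 against 4 libraries allow is 0.0286, and none of the 6 nearest genes reached it. For Zfand3, Umodl1 and Abcg1 the log2 differences against WT A and WT D alone were -0.04, 0.09 and 0.09. For Mdga1, Gm16758 and Slc37a1 they were -0.03, 0.006 and -0.20.

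Within 1 Mb on each side, 31 genes were tested and 0 were called by limma, against 0.437% of all genes tested. Their lowest adjusted p in limma was 0.301, and nothing is read from this count of 0. At an unadjusted p under 0.05, 1 was lower (Rnf8, log2 difference -0.55) and 1 higher (Gm50107, 0.30), where 7.28% of all genes tested were lower and 9.29% higher by this measure. Their median log2 difference was -0.03, and 17 of 31 had a lower mean in the quadruple KO. The genotypes were free of overlap, in either direction, in 0 of the 31 genes. Over all genes tested, 3.58% had every quadruple KO library below and 6.16% every quadruple KO library above every WT library, so that nothing is read from this count. With WT A and WT D alone 30 genes were tested and 0 called by limma, where 99 of all 17585 genes tested were called. Their median log2 difference was then 0.03, and at an unadjusted p under 0.05, 0 were lower and 1 higher (Pknox1). The unadjusted shares of all genes were not computed for that fit, so nothing is read from these counts. With all 8 libraries the extremes were -4.34 for Gm28052 and 0.97 for Hsf2bp. Gm28052 had 392 (WT B) and 425 (WT C) normalized counts and was at 0 in the other 6 libraries. Rnf8 was likewise higher in WT B and WT C (1927 and 1742) than in the other libraries (864 to 1074). Its log2 difference against WT A and WT D alone was -0.10. Gm50107 had 131 and 140 normalized counts in WT B and C and 166 and 188 in WT A and D. It had 185 to 204 in the quadruple KO, and its log2 difference against WT A and WT D alone was 0.12. Rnf8, Gm50107, Pknox1, Gm28052 and Hsf2bp were named after their values were seen.

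**Figure D3:**
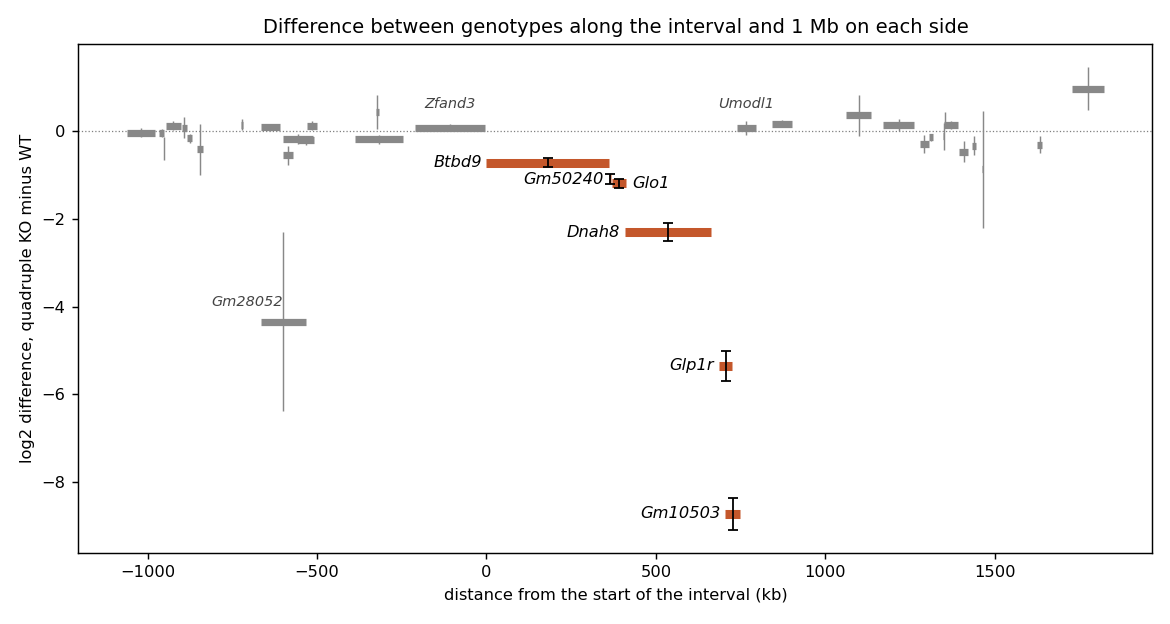
Log2 difference of the quadruple KO minus WT (vertical axis) against distance from the start of the interval in kb (horizontal axis). Bars span each gene, orange for the 6 genes and grey for the 31 genes within 1 Mb, and error bars are 1 SE. The 6 genes descend from -0.71 at Btbd9 to -8.72 at Gm10503, where the value depends on the pseudocount. Zfand3 and Umodl1 at the edges lie at 0.09 and 0.08, and Gm28052, at 0 in 6 libraries, is the other low bar.

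Genes from the families of the interval's proteins or from linked pathways were compared next. The 4 lists held 112 genes, of which 97 were tested. By limma 0 of the 97 were called, against 0.437% of all genes. At an unadjusted p under 0.05, 8 were lower and 8 higher, near the shares of all genes tested (7.28% and 9.29%). Without WT B and WT C, 4 were lower and 2 higher, and 0 were called by limma, where 99 of all 17585 genes tested were called. The unadjusted shares of all genes were not computed for that fit, so nothing is read from the smaller counts.

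Around Glo1, 18 genes of methylglyoxal and glutathione metabolism had a median log2 difference of -0.09, or -0.002 against WT A and WT D alone. With all WT libraries, 1 was higher at an unadjusted p under 0.05 (Gpx4, a glutathione peroxidase). Gpx4 had 4066 and 5133 normalized counts in WT B and C, 6914 and 7884 in WT A and D, and 6971 to 8684 in the quadruple KO. Its log2 difference of 0.45 became 0.11 against WT A and WT D alone. The 2 with the highest level were the glycolytic enzymes Gapdh, at 73784 ± 6343 in WT retinae and 67351 ± 2931 in quadruple KO retinae (SD, n = 4), and Tpi1, at 17894 ± 1108 and 16629 ± 618 (SD, n = 4). Their log2 differences were -0.13 (95% confidence interval -0.31 to 0.05) and -0.10 (-0.26 to 0.05). Neither passed the test (limma, adjusted p = 0.368 and 0.382). Their log2 differences against WT A and WT D alone were -0.04 and -0.15, where Tpi1 was lower at an unadjusted p under 0.05.

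Around Dnah8, 21 genes of axonemal dyneins had a median log2 difference of -0.005. Dnai4 and Dnah7b, those with the highest level, had log2 differences of -0.005 (95% confidence interval -0.19 to 0.18) and 0.03 (-0.18 to 0.24). At an unadjusted p under 0.05 the heavy chain gene Dnah9 was lower (-0.25) and the intermediate chain gene Dnai1 higher (0.68). These values became -0.16 and 0.35 without WT B and WT C. Of the markers of ciliated cells, Foxj1 ran from 92.6 to 123 normalized counts in WT and from 86.1 to 106 in the quadruple KO, and Ccdc39 from 275 to 500 and from 414 to 591. Their sum was 524 to 593 in WT A and D, 398 to 400 in WT B and C, and 500 to 677 in the quadruple KO. The groups overlapped for each marker and for the sum, and their part in the level of Dnah8 was not tested.

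Around Glp1r, 31 genes of class B receptors and cyclic AMP signalling had a median log2 difference of -0.12, with 6 lower and 2 higher at an unadjusted p under 0.05. Of the 6, the kinase subunit genes Prkacb, Prkar1a and Prkar1b and the cyclase gene Adcy5 were higher in WT B and WT C than in the other libraries. Prkar1a, for instance, had 20317 and 20136 normalized counts in WT B and C, 14645 and 13266 in WT A and D, and 13258 to 13659 in the quadruple KO. Crhr2, a class B receptor gene among the 6, had 83.4, 108, 81.6 and 80.3 normalized counts in WT A to D. In quadruple KO A to D it had 59.0, 59.2, 81.6 and 67.3. Its log2 difference of -0.40 became -0.30 against WT A and WT D alone. Against WT A and WT D alone the median of the list was -0.02, and 1 gene, Rapgef4, was lower and 0 were higher at an unadjusted p under 0.05. Rapgef4, which encodes a cyclic AMP sensor that activates Rap proteins, came nearest to the threshold of the 97 genes. It had 1292 ± 78.8 normalized counts in WT retinae and 927 ± 80.3 in quadruple KO retinae (SD, n = 4), with no overlap (limma, adjusted p = 0.0652, log2 difference -0.48). Its log2 difference to WT A and WT D was -0.41. In the paper's own comparison with DESeq2, Rapgef4 was called lower in the quadruple KO at an adjusted p under 0.05. The highest level was that of Adcy1, an adenylate cyclase (24499 ± 3854 and 22609 ± 638), and of Gnas, the stimulatory G protein subunit that couples such receptors to cyclases (27732 ± 12664 and 16421 ± 255; SD, n = 4). For Gnas, WT B and WT C had 39887 and 37441, and the other 6 libraries lay between 16175 and 16980. The 2 that were higher were the ligand gene Adcyap1 (0.70) and Dpp4 (0.90), whose peptidase inactivates glucagon-like peptide 1, at 0.46 and 0.51 against WT A and WT D alone.

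Around Btbd9, 27 genes of BTB proteins and the Cul3 ligase had a median log2 difference of 0.07, or 0.02 against WT A and WT D alone. Cul3, the scaffold of the ligase, had 7956 ± 993 normalized counts in WT retinae and 9732 ± 356 in quadruple KO retinae, and Spop, a BTB adaptor, had 8334 ± 338 and 8427 ± 334 (SD, n = 4). Their log2 differences were 0.30 (95% confidence interval 0.09 to 0.51) and 0.02 (-0.12 to 0.16). Cul3, Ube2m, Btbd1 and Btbd7 were higher and Rhobtb1 was lower at an unadjusted p under 0.05, with an adjusted p of 0.301 for Cul3 in limma. Against WT A and WT D alone the log2 difference of Cul3 was 0.14, and Cul3, Btbd1 and Rhobtb1 remained at an unadjusted p under 0.05.

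**Figure D4:**
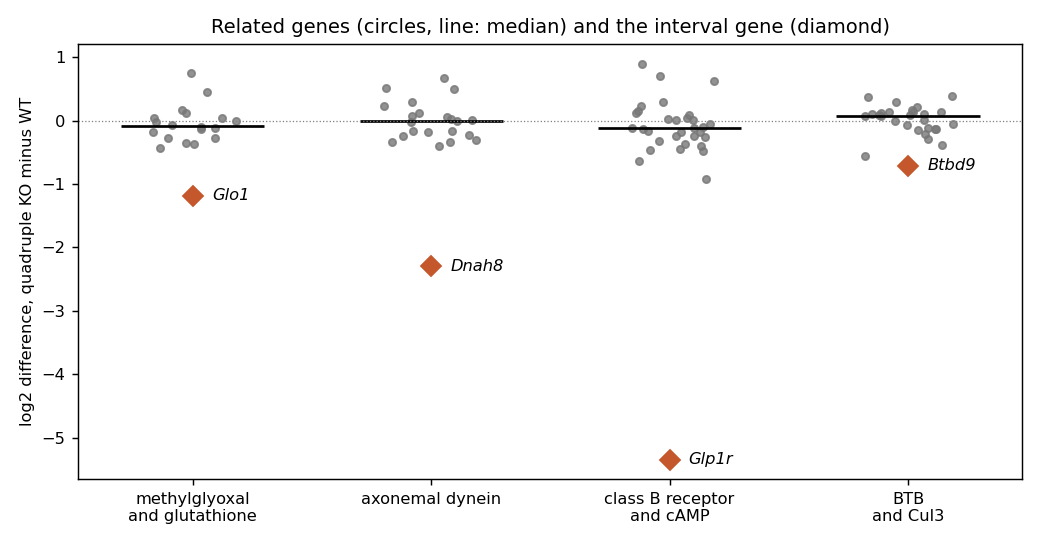
Log2 difference of the quadruple KO minus WT (vertical axis) for the tested genes of the 4 lists (grey circles, spread sideways for legibility, line at the median), with the gene of the interval to which each list belongs as a diamond. The listed genes lie between -0.93 and 0.90, and each diamond lies below the circles of its list, as the genes were picked.

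The 5 genes outside the interval whose pattern over the 8 libraries was most like the mean profile of the 6 genes were Gm6277 (Pearson r = 0.987), Ncan (0.984), Tnr (0.983), Slc5a8 (0.978) and Hmox2 (0.971). The 8 libraries fall into the 2 genotypes, so such a value mostly reflects a gap between them, and it is given as a description. Ncan and Tnr are targeted genes. Gm6277, a lncRNA gene, stood at 267 ± 18.7 normalized counts in WT retinae and 127 ± 13.3 in quadruple KO retinae, and Hmox2, a heme oxygenase, at 1275 ± 290 and 186 ± 17.5 (SD, n = 4). Relative to WT A and WT D they stood at 48.1% and 18.03%. Slc5a8, a monocarboxylate transporter, had 98.4 ± 25.2 in WT and 0.854, 0, 0 and 0 in quadruple KO A to D (SD, n = 4). None of the 5 lies on chromosome 17.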

How the data were processed

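Per the labels, total RNA (450 ng per library) of adult mouse retinae was sequenced. The submitters' processing notes name Trim Galore 0.6.7, STAR 2.7.9a, Salmon 1.5.2, R 4.1.1, DESeq2 1.32.0 and GRCm39. The authors deposited 1 table of normalized counts per library (estimated counts divided by normalization factors of DESeq2), whose lowest mean was 8.50. Its columns with the mean, fold change, standard error, statistic, p-values and call of the authors' own comparison were not used.

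Libraries were grouped by their labels. The values were put on the scale of log2(normalized count + 1), and limma 3.58.1 was run on genes whose mean over the 8 libraries reached 10, under R 4.3.3 (eBayes with a trend, no covariates). Benjamini-Hochberg adjustment covered all 17636 of them, with a threshold of 0.05 for a call. For named neighbours, two-sided exact permutation tests were added. With 42.7% to 68.7% of low values on whole reads (tolerance 0.1), depth was estimated and whole reads were not recovered, so no count model was run. Intervals from reads cover counting error only.

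Positions, exonic lengths and promoters came from GENCODE vM39, matched by identifier for 17969 of 18058 genes. Transcripts were cut into stretches of 31 bases and matched on the same strand, a step added after the data were seen. The steps were tested on simulated data. The alternatives were other scalings, pseudocounts, filters, variance models and thresholds, library weights, the letter as a replicate block, wider and narrower flanks, WT A and WT D alone, and each library left out in turn.

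The members and lists were chosen with earlier results of these data known. The text names the 6 genes, the targeted genes, the 3 tested genes nearest on each side, called genes of flanks and lists or else the 2 of each list with the highest mean, and the 5 genes most like the members' mean profile. Other names were added after their values were seen. Python 3.11.15, numpy 2.4.6, pandas 2.3.3, scipy 1.17.1 and matplotlib 3.10.9 were used.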

Additional observations from a re-analysis of the deposited data

Results flagged for a closer look

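In 54 groups of 4 libraries (named genes by genotype), 6 held a library whose gap to the nearest other was most of the group's range (Dixon's test, 95% level), and chance flags about 1 in 20 groups. Inside the interval these were Btbd9 in quadruple KO C, at 3365 against 3139 to 3177 in the other 3 libraries, Glp1r in WT B, at 287 against 104 to 126, and Gm10503 in WT C, at 310 against 698 to 747. Outside it they were Slc37a1 in quadruple KO D, at 77.1 against 22.6 to 28.2, Dnah7b in WT A, at 2497 against 2214 to 2261, and Slc5a8 in quadruple KO A, at 0.854 against 0 in the others. The values are normalized counts.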

How the results depend on the processing

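The median log2 difference of the 6 genes was -1.91 to -1.60 under the alternatives that gave it, and a minimum mean of 100 gave none because Dnah8 and Glp1r then drop out of the test. Single values moved by more than the spread between replicates for Dnah8 (-2.58 with array weights), Glp1r (-3.60 with a pseudocount of 10, -6.06 with quantile normalization) and Gm10503 (-5.82 and -10.85 with pseudocounts of 10 and 0.1). The 77 genes called became 143 with array weights and 51 with the letter as a replicate block, and 54 to 89 with each library left out. Under array weights 1 listed gene, Rapgef4, was called. In flanks of 500 kb and 2 Mb 0 of 8 and 0 of 71 genes were called, against 0.437% of all genes tested. Deviations of libraries with the same letter correlated at -0.109 to 0.098, and those with unlike letters at -0.132 to 0.115. The labels state no pairing, and these values cannot exclude a step shared by letter, so the main fit used no block. Btbd9 missed the threshold under the replicate block and without quadruple KO A, B or D. Depth limits the quadruple KO values of Glp1r and Gm10503, which rest on a few reads. The causes of these shifts were not tested.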
